A study of Mus musculus with 6 samples.

Results

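The heat-shock proteins and DnaJ chaperones were followed here as the genes whose symbol begins with Hsp or Dnaj and whose reads summed to 60 or more over the 6 libraries. Of 24015 gene rows, 75 carried such a symbol and 64 reached the sum, 24 named Hsp and 40 named Dnaj, and all 64 were among the 12939 genes tested. The lowest members were Dnajb3 with 110 reads and Hspa12b with 118. The 11 rows left out reached from 54 reads (Dnajb7) and 45 (Hspb9) down to 0, and included Hspb1, the small heat-shock protein Hsp27, with 10 reads. Total RNA was sequenced from mouse thymocytes sorted as DN3 cells, the stage at which T cell precursors rearrange and test the T cell receptor beta chain. The sort took cells negative for lineage markers, CD4 and CD8, with low CD44 and high CD25. Control mice were wild type. Mice of genotype p45-/- lack the long isoforms of Tcf1, a transcription factor of early T cells encoded by Tcf7. Mice of genotype Lck-cre+ Tcf1 fl/fl lose all Tcf1 proteins where Cre, expressed from the T-lineage Lck promoter, has recombined the floxed gene, so cells in which recombination is incomplete can remain. Each group had 2 libraries, numbered 1 and 2. Ages are not in the labels, and neither is whether a group's 2 libraries derive from different mice, so each p-value reflects only how far these libraries scatter, and that scatter could be technical.

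Chaperones bind unfolded or partly folded proteins and release them in a form that can fold. Hsp70 proteins do so in cycles of ATP hydrolysis that J-domain (DnaJ) proteins start and exchange factors, among them the Hsp110 proteins, reset. Hsp90 proteins act later, on nearly folded clients such as kinases and receptors. The endoplasmic reticulum (ER) has its own set, with Hspa5 (BiP), Hsp90b1 (Grp94) and several DnaJ proteins, which the unfolded protein response induces, and mitochondria have Hspa9 (mortalin) and the Hspd1-Hspe1 chaperonin. Hspa1a and Hspa1b encode the stress-inducible Hsp70, which heat-shock factor Hsf1 switches on within minutes of heat or other stress. Developing thymocytes make large amounts of receptor chains that pass through the ER.

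The members fell into 11 Hsp70, 3 Hsp110, 3 Hsp90 and 2 mitochondrial chaperonin genes, 1 small heat-shock gene (Hspb6), 4 DnaJ genes of class A, 11 of class B and 25 of class C, and 4 genes that bear an Hsp name but belong to none of these families. Those 4 are Hspg2, which encodes the matrix proteoglycan perlecan, Hspb11, which encodes an intraflagellar transport protein, Hspbap1, and Hspbp1, an Hsp70 exchange factor. By the compartment in which the proteins are known to work, 13 members were assigned to the ER, 8 to mitochondria and 39 to the cytosol, nucleus or another place.

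The regions upstream of 6 members are shown, and no test of the counts below used these sequences. The 6 are the near-identical inducible pair Hspa1a and Hspa1b, Hspe1 as a chaperonin gene with a full heat shock element, and 3 ER chaperone genes with an ER stress element. All are from RefSeq promoter windows on GRCm38.p6, written 5′ to 3′ on the gene's strand, with capitals for the letters of each motif match. The first 3 lines carry matches to the heat shock element, the site bound by heat-shock factors, searched on both strands as 3 units (GAANNTTCNNGAA) or as 2 units (GAANNTTC or TTCNNGAA, which can lie inside the longer motif). Hspa1a (chr17:34972157-34972406, minus strand) and Hspa1b (chr17:34959239-34959488, minus strand) are given for the 250 bases before the start, and Hspe1 (chr1:55088053-55088082, plus strand) for 30 bases around its matches.
Hspa1a: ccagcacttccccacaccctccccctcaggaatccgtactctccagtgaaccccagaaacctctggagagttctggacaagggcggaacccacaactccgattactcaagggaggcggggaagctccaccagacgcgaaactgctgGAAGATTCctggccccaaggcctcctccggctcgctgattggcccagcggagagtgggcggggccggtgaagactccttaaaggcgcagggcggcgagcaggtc
Hspa1b: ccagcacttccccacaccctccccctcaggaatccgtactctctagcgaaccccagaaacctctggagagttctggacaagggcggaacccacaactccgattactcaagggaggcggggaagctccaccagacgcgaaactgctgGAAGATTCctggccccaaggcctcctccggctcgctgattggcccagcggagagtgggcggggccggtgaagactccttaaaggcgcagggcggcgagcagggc
Hspe1: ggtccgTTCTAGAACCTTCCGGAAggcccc
In Hspa1a and Hspa1b the one match, GAAGATTC, lay 104 to 97 bases before the start. The 300-base windows of the pair differed at 4 positions, and their coding sequences were identical at 99.4% of 1929 aligned positions, so reads from the 2 genes can be assigned to either, and the split between them is uncertain. In Hspe1, 2 overlapping full matches spanned the bases from 89 to 72 before the start.

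The next 3 lines carry matches to the ER stress element (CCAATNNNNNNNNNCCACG, both strands), the site through which Atf6 and Xbp1 act on ER chaperone genes. They cover Hsp90b1 (chr10:86705510-86705694, minus strand, upstream of its first annotated exon), Hspa5 (chr2:34772019-34772048, plus strand, 30 bases around the match) and Dnajc3 (chr14:118937682-118937931, plus strand, the 250 bases before the start).
Hsp90b1: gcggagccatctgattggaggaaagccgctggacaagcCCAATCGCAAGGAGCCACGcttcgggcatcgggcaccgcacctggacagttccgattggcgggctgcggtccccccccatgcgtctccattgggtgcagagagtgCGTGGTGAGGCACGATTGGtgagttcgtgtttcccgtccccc
Hspa5: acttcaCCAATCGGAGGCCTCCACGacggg
Dnajc3: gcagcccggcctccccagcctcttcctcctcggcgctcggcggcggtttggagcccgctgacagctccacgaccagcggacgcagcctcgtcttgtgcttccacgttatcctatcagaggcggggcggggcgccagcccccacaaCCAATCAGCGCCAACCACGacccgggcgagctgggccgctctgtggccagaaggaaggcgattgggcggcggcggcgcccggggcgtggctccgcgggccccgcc
Hsp90b1 had 2 matches, one on each strand, and Hspa5 and Dnajc3 had 1 each. The table held promoter windows for 53 of the 64 members. Of these, 3 (5.66%) had an ER stress element in at least 1 window, the 3 shown, and 4 (7.55%) had a full heat shock element: Dnajb6, Hspd1, Hspe1 and Hsph1. Over all 32851 windows of the same length, the ER stress element was in 0.119% and the full heat shock element in 0.603%, and counted by gene as for the members, 0.137% and 0.662% of 27025 genes had a match. The shorter 2-unit forms were in 7.86% (GAANNTTC) and 8.52% (TTCNNGAA) of windows, in 9.04% and 9.6% of genes, and in 18.9% and 11.3% of the members. A match is a description of the letters and not of a bound site.

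Totals ran from 19640524 to 28107031 reads per library, so 3 reads, the lowest count taken as a level, corresponded to 0.110 to 0.145 CPM (counts per 1000000 reads), scaled by TMM, which brings the middle genes of the libraries to a common level. Tcf7 was at 2088 and 1810 CPM in wild-type control libraries, 2340 and 2414 in p45-deficient ones and 979 and 976 in Tcf1-deficient ones; the gene's total reads cannot show the loss of the long isoforms alone. All 10 DN3 markers looked at were present, Il2ra (CD25) at 923 to 1991 CPM, but some differed between the groups. Dtx1, a Notch target, rose in p45-deficient over control cells (147 and 140 against 501 and 435 CPM, edgeR adjusted p = 0.00186), and Dtx1, Ptcra and Rag1 were called lower in Tcf1-deficient than in p45-deficient cells, Rag1 at 458 and 801 against 1621 and 1539 CPM. Tcf1-deficient library 1 stood apart in other lineages' genes. It had Cd4 at 372 CPM against at most 86.5 elsewhere, Cd44 at 41.0 against at most 7.94, and a summed level of 6 natural killer and innate lymphoid genes of 154 against 34.7 to 68.6 in the other 5. Cd8a and Cd8b1 did not follow, at 56.0 and 47.5 CPM in that library. Both were highest in the p45-deficient pair without being called. Cd8a was at 110 and 85.4 CPM there against 75.9 and 37.7 in control, and Cd8b1 at 89.7 and 77.5 against 48.7 and 22.9. The 5 B cell genes summed to 35.2 and 28.1 CPM in control, 16.1 and 13.5 in p45-deficient libraries and 19.6 and 29.3 in Tcf1-deficient ones, and 8 myeloid and dendritic cell genes to 47.8 and 30.5, 12.02 and 15.7, and 34.2 and 15.7 CPM. Both sums were thus lower in the p45-deficient than in the control pair, and the B cell gene Cd79a was called lower there (edgeR adjusted p = 0.0393). The part of such cells in the chaperone values was not tested, and in bulk RNA fewer cells of a type cannot be told apart from less RNA per cell.

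In p45-deficient against control cells, 7 of the 64 members rose and 1 fell by edgeR's quasi-likelihood test at an adjusted p below 0.05. The 7 were the ER chaperone genes Hsp90b1, Dnajc3 and Dnajc10, the mitochondrial Dnajc15, the nuclear Dnajc9, Dnajc12, and Hspb11, and the 1 that fell was Dnajb2. Of all 12939 genes, 16.0% were called, 8.47% higher and 7.55% lower, against 10.9% and 1.56% of the members. Both p45-deficient libraries lay above both control libraries for 29 members and below for 12, shares of 45.3% and 18.8%; over all genes the shares were 37.9% and 31.3%. The median log2 fold change of the members was 0.10, and that of all genes 0.05. With unscaled library totals, the median of all genes moved to -0.06, and 4 members were called higher and 3 lower. Of these calls, all but that of Hsp90b1 were lost without any 1 of the 4 libraries of the 2 groups. Without control replicate 1, control replicate 2 or p45-deficient replicate 1 no member was called higher, and without p45-deficient replicate 2 only Hsp90b1 was; without Tcf1-deficient replicate 1 or 2, which share in the estimate of spread, 10 and 14 were.

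**Figure D1:**
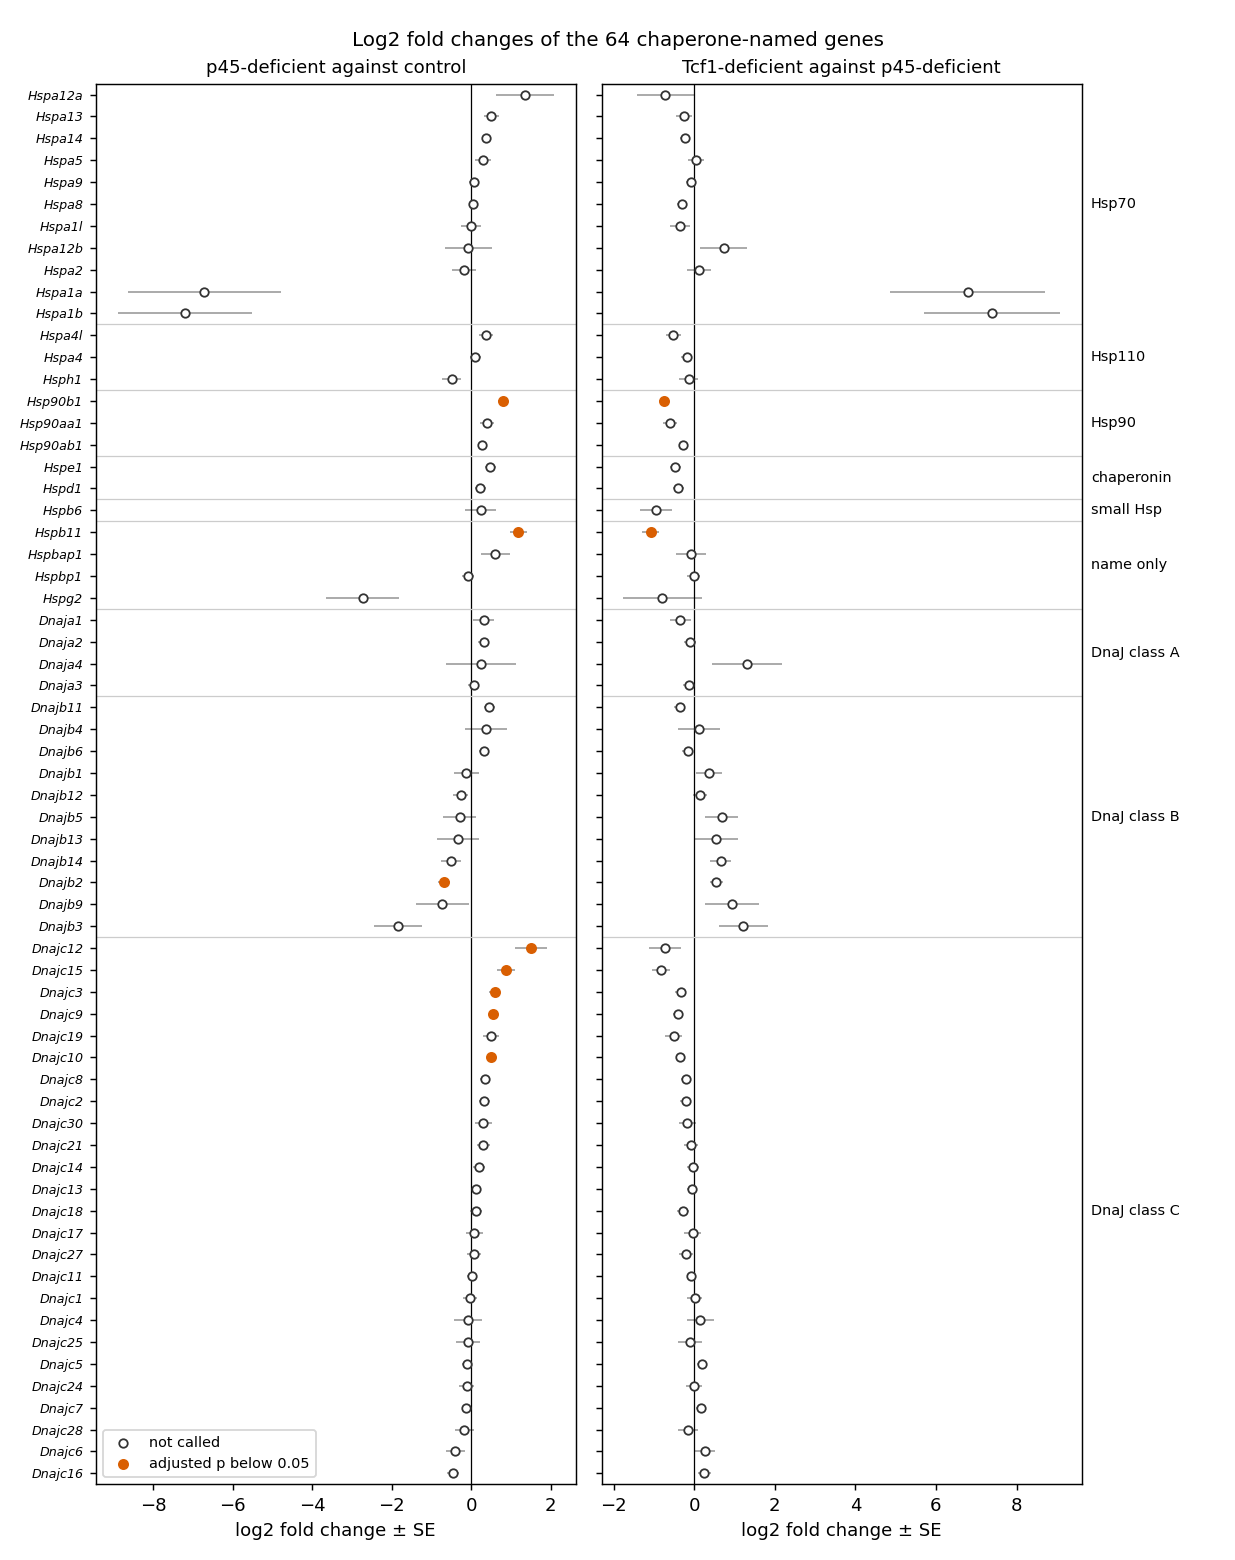
Log2 fold changes with standard errors (horizontal axis) of all 64 members (vertical axis, grouped by family) in p45-deficient against control cells (left) and Tcf1-deficient against p45-deficient cells (right), with filled points at an adjusted p below 0.05. On the left 7 filled points lie above 0 and 1 below, and Hspa1a and Hspa1b lie farthest from 0 in both panels without being called; the panels share the p45-deficient libraries.

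The ER chaperones held 3 of the 7 that rose, out of 13 members of that compartment (23.1%, against 8.47% of all genes). With unscaled totals 2 of the 13 were called higher and 1 lower, and DESeq2 called 4 higher and 1 lower. Hsp90b1, the ER's Hsp90, was at 409 and 432 CPM in control, with 791 and 674 in p45-deficient libraries and 433 and 435 in Tcf1-deficient ones. Both p45-deficient libraries stood above the other 4, which lay within a narrow band. The level was 1.74-fold higher in p45-deficient than in control cells (log2 fold change 0.80 ± 0.12 SE, edgeR adjusted p = 0.00829). Without p45-deficient replicate 2 the adjusted p was 0.0402, and the call was lost without control replicate 1 (0.0776), control replicate 2 (0.0558) or p45-deficient replicate 1 (0.0976).

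Dnajc3 encodes P58IPK, a J protein that works with Hspa5 in the ER lumen and restrains the kinase Perk. It had 112 and 134 CPM in the control pair, 194 and 175 in the p45-deficient pair and 149 and 144 in the Tcf1-deficient pair, a rise in p45-deficient over control cells (log2 0.59 ± 0.13, adjusted p = 0.0274). Dnajc10 encodes ERdj5, a reductase that opens disulfide bonds of misfolded proteins. Its values were 68.3 and 63.8 CPM in wild-type control libraries, 91.6 and 94.7 in p45-deficient ones and 73.2 and 72.8 in Tcf1-deficient ones, 1.41-fold higher in p45-deficient than in control cells (log2 0.50 ± 0.11, adjusted p = 0.0275). For both genes the 3 groups did not overlap, with Tcf1-deficient libraries between the other two. Leaving out any one control or p45-deficient library raised the adjusted p to between 0.0669 and 0.22 for Dnajc3 and between 0.131 and 0.201 for Dnajc10. With unscaled totals Dnajc10 reached 0.0596, and with upper-quartile scaling 0.0501.

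Other ER members did not pass in the main fit. Dnajb11 (ERdj3), which hands unfolded chains to Hspa5, had 81.4 and 86.2 CPM in control and 125 and 105 in p45-deficient libraries, with no overlap (log2 0.46 ± 0.13, adjusted p = 0.0561). Hspa5, the main ER Hsp70, was at 380 and 584 CPM in control, with 630 and 557 in p45-deficient libraries and 631 and 595 in Tcf1-deficient ones. Its control libraries lay so far apart that the second overlapped the p45-deficient range (log2 0.30 ± 0.20, adjusted p = 0.328), and without control replicate 1 the difference was -0.03. Hspa5 and Hsp90b1, which both carry an ER stress element, thus ranked the libraries differently: control replicate 2 and both Tcf1-deficient libraries had high Hspa5 and low Hsp90b1. Hspa13, an ER-associated Hsp70, had 18.2 and 25.1 CPM in control and 31.0 and 30.5 in p45-deficient libraries (adjusted p = 0.109). The transmembrane J proteins Dnajb12, Dnajb14 and Dnajc16 had lower values in both p45-deficient than in both control libraries. They did not pass in the main fit, with edgeR adjusted p of 0.343, 0.204 and 0.0771. Dnajc16 was called lower by DESeq2, with unscaled totals and in a fit of only these 2 groups.

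**Figure D2:**
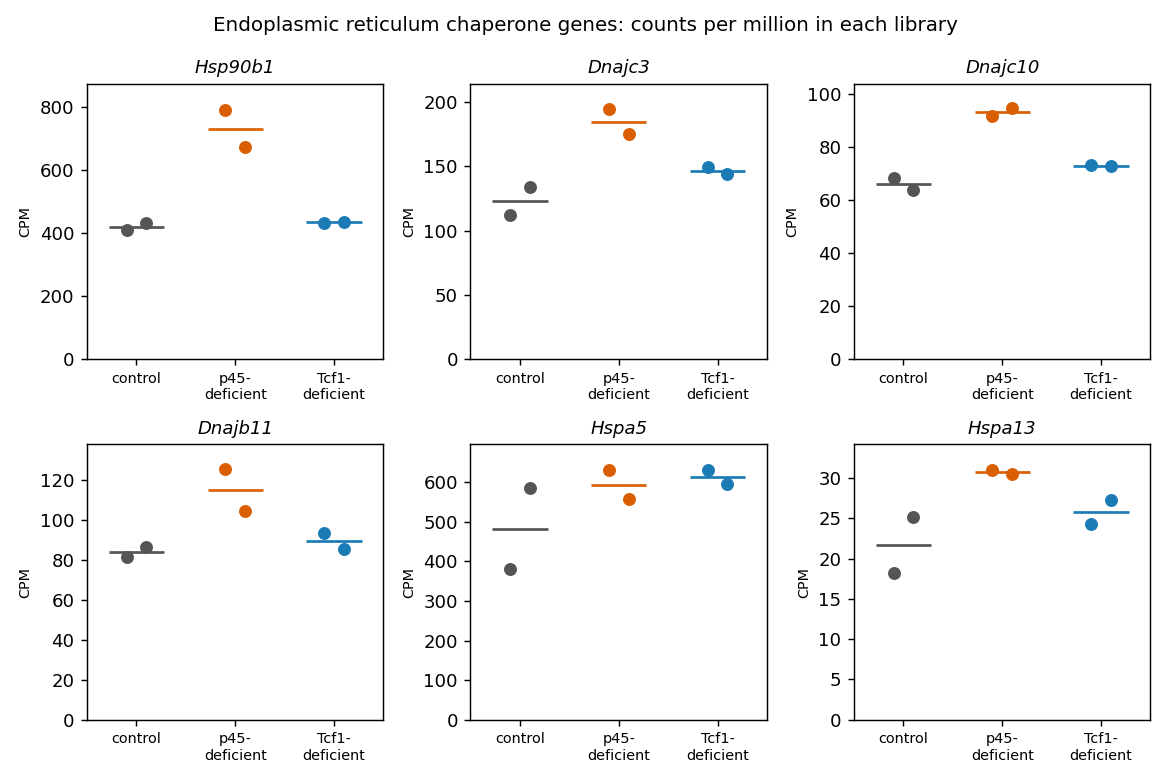
CPM (vertical axes, from 0) of 6 ER chaperone genes in each library, with a line at each group's mean. Hsp90b1, Dnajc3 and Dnajc10 sit highest in the p45-deficient libraries, while the 2 control libraries of Hspa5 lie at 380 and 584 CPM, the second within the range of the p45-deficient pair.

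Beside the members, 23 other genes of ER protein folding and the unfolded protein response were looked at, and 6 rose in p45-deficient cells and 0 fell by edgeR's test with TMM scaling, where 8.47% and 7.55% of all genes did. With unscaled totals or upper-quartile scaling 5 were called higher and 1 lower, and DESeq2 called 6 higher and 2 lower. Manf, a secreted folding factor of the ER, was at 77.8 and 84.5 CPM in the control pair, 156 and 131 in the p45-deficient pair and 78.7 and 80.3 in the Tcf1-deficient pair (log2 0.82 ± 0.13, adjusted p = 0.00928). The disulfide isomerase Pdia3 had 325 and 367 against 594 and 520 CPM (log2 0.69 ± 0.12, adjusted p = 0.0137), and Pdia6 had 212 and 201 against 346 and 297 CPM (log2 0.64 ± 0.12, adjusted p = 0.0164). The others that rose were Pdia4, the lectin chaperone Canx and the stress kinase Perk gene Eif2ak3. The transcription factors that carry the unfolded protein response were not among them. Xbp1 was at 162 and 204 CPM in control and 164 and 133 in p45-deficient libraries (adjusted p = 0.239), Atf4 at 161 and 224 against 185 and 192 (adjusted p = 0.93), and Ddit3 (Chop) at 12.4 and 15.4 against 12.02 and 9.48 (adjusted p = 0.281). The median log2 fold change over the 23 genes was 0.02, near that of all genes. Without control replicate 1 or 2 or p45-deficient replicate 1 none of the 23 was called higher, and without p45-deficient replicate 2 only 1 was.

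Of the 8 mitochondrial members, 1 rose in p45-deficient cells (12.5%, near the 8.47% of all genes) and 6 had both p45-deficient libraries above both controls (37.9% of all genes). Dnajc15, a J protein of the import motor in the inner membrane, was at 19.4 and 19.3 CPM in wild-type control libraries, 34.4 and 36.3 in p45-deficient ones and 15.7 and 24.3 in Tcf1-deficient ones (1.83-fold, log2 0.87 ± 0.22, adjusted p = 0.0371). The control and p45-deficient pairs were each tight, and the 2 Tcf1-deficient libraries fell on either side of control. Hspe1, the lid of the chaperonin that folds proteins of the matrix, had 164 and 195 CPM in control, with 263 and 238 in p45-deficient libraries and 172 and 188 in Tcf1-deficient ones (log2 0.48 ± 0.13, adjusted p = 0.0507). Its partner Hspd1 was at 525 and 593, 657 and 648, and 439 and 550 CPM (adjusted p = 0.303). The 2 genes lie head to head and overlap at their starts in the GRCm38 annotation, and strand use in the counting is not given in the sources used here. Hspa9, the matrix Hsp70, stayed within 384 to 455 CPM in all 6 libraries. All 8 had positive log2 fold changes with TMM scaling, but 5 did with unscaled totals. Among 12 other mitochondrial proteostasis genes, 1 rose and 0 fell: Grpel1, the exchange factor of Hspa9, at 56.8 and 59.1 against 83.7 and 89.3 CPM (log2 0.58 ± 0.11, adjusted p = 0.0184). Leaving out any one control or p45-deficient library raised the adjusted p of Dnajc15 to between 0.173 and 0.199 and of Grpel1 to between 0.0947 and 0.165. With unscaled totals that of Dnajc15 was 0.0583, and with upper-quartile scaling 0.0517.

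The 39 members of the cytosol, nucleus or another place held 2 that rose and 1 that fell. These shares, 5.13% and 2.56%, were below the 8.47% and 7.55% of all genes. Dnajc9, a J protein that is also a histone chaperone and is made with DNA replication, was at 154 and 165 CPM in the control pair, 229 and 238 in the p45-deficient pair and 169 and 181 in the Tcf1-deficient pair (1.46-fold over control, log2 0.55 ± 0.11, adjusted p = 0.0212). Dnajc12, a J protein known for its part in folding aromatic amino acid hydroxylases, was low throughout, at 2.51 and 1.34 CPM in wild-type control libraries, 5.73 and 5.07 in p45-deficient ones and 3.56 and 2.996 in Tcf1-deficient ones (2.82-fold, SE of the log2 value 0.41, adjusted p = 0.0474). Dnajb2, a J protein that binds ubiquitin and steers clients to the proteasome, was at 26.2 and 25.7 CPM in control, with 17.1 and 15.03 in p45-deficient libraries and 23.3 and 23.8 in Tcf1-deficient ones. It was 1.61-fold lower in p45-deficient cells (log2 -0.69 ± 0.16, adjusted p = 0.0279). For all 3 the p45-deficient pair stood apart from the other 4 libraries. Leaving out any one control or p45-deficient library ended each of these calls, with adjusted p between 0.0913 and 0.172 for Dnajc9, 0.0987 and 0.24 for Dnajc12, and 0.0943 and 0.215 for Dnajb2. Dnajc12 also missed the threshold with unscaled totals (0.0637), upper-quartile scaling (0.0608) and relative log expression scaling (0.0536).

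The cytosolic Hsp90 genes were highest in the p45-deficient libraries without passing. Hsp90aa1, the inducible form, had 1256 and 1502 CPM in the control pair, 1977 and 1655 in the p45-deficient pair and 1021 and 1374 in the Tcf1-deficient pair (log2 0.40, adjusted p = 0.16), and Hsp90ab1, the constitutive form, 4454 and 4653, 5389 and 5561, and 4285 and 4732 CPM (log2 0.27, adjusted p = 0.107). Both p45-deficient libraries exceeded the other 4 for each gene, and both genes were called when Tcf1-deficient replicate 2 was left out (0.0421 and 0.0367). Hspa8, the constitutive cytosolic Hsp70, was at 3338 and 3699, 3917 and 3392, and 2754 and 3165 CPM, with control and p45-deficient libraries overlapping. The Hsp110 gene Hspa4 lay at 316 to 416 CPM in all libraries. The class B DnaJ genes had a median log2 fold change of -0.29 with TMM. Of the 11, 8 were negative, under TMM as under the other scalings, where 6011 of all 12939 genes were negative with TMM. Only 1, Dnajb2, was called lower (9.09%, near the 7.55% of all genes). DESeq2 called 1 of the 11 higher and 1 lower.

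Among the partners of these chaperones, the 13 measured subunits of the TRiC chaperonin and prefoldin, which fold actin and tubulin, gave 4 that rose in p45-deficient cells and 0 that fell, where 8.47% and 7.55% of all genes did. The prefoldin genes Pfdn1 (34.0 and 31.1 against 52.0 and 51.7 CPM, log2 0.67, adjusted p = 0.0184), Vbp1 (35.1 and 45.8 against 73.0 and 62.6 CPM, log2 0.74, adjusted p = 0.0264) and Pfdn4 (9.91 and 10.99 against 20.3 and 18.3 CPM, log2 0.88, adjusted p = 0.0373) were 3 of them, and Tcp1 was the other. Both p45-deficient libraries lay above both controls for 12 of the 13, where 37.9% of all genes did. The median log2 fold change of the 13 was 0.35 with TMM and 0.25 with unscaled totals, when 2 were called. Of 26 tested co-chaperones of Hsp70 and Hsp90, 1 rose, Sugt1 (37.1 and 41.3 against 66.8 and 61.2 CPM, log2 0.71, adjusted p = 0.014), and 1 fell, Bag3 (7.06 and 10.6 against 3.53 and 1.53 CPM, log2 -1.80, adjusted p = 0.0383). Bag3 is an exchange factor for Hsp70 that is itself stress-induced. With unscaled totals or upper-quartile scaling 1 co-chaperone was called higher and 3 lower, and DESeq2 called 2 higher and 4 lower. None of 5 tested heat-shock factor genes and regulators, and none of 4 other J proteins, was called by edgeR; Hsf1 was at 81.4 and 71.1 CPM in wild-type control libraries, 60.7 and 66.5 in p45-deficient ones and 54.5 and 74.3 in Tcf1-deficient ones (adjusted p = 0.327 for p45-deficient against control). Dropping control replicate 1 or 2 or p45-deficient replicate 1 or 2 left no TRiC, prefoldin or co-chaperone gene called.

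The inducible Hsp70 genes had the widest range of the 64 members. Hspa1a gave 32 and 911 reads in control, with 3 and 5 in p45-deficient libraries and 293 and 607 in Tcf1-deficient ones, or 1.55 and 34.8, 0.110 and 0.239, and 12.9 and 25.3 CPM. Hspa1b gave 123 and 1981, 6 and 7, and 782 and 1396 reads, or 5.95 and 75.6, 0.221 and 0.335, and 34.4 and 58.1 CPM. For both genes the p45-deficient libraries were below the other 4, and the 2 control libraries lay on either side of the Tcf1-deficient pair. The 2 control libraries alone differed 21.4-fold for Hspa1a and 12.6-fold for Hspa1b (with a prior count of 2).

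The difference between p45-deficient and control cells, a fitted log2 fold change of -6.72 ± 1.92 for Hspa1a and -7.21 ± 1.68 for Hspa1b, did not pass edgeR's test (adjusted p = 0.0818 and 0.0534). These fitted values rest on 3 to 7 reads per p45-deficient library. Tcf1-deficient against p45-deficient cells gave 6.78 ± 1.92 and 7.38 ± 1.69 (adjusted p = 0.0935 and 0.0618). Summing the 2 genes in place of splitting their reads, a choice made after seeing the data, gave adjusted p of 0.0585 and 0.0673 for the 2 comparisons. Whether the pair was called turned on the control libraries and the tool. Without control replicate 1 both were called lower in p45-deficient cells (adjusted p = 0.00867 for Hspa1a and 0.00604 for Hspa1b). Without control replicate 2 Hspa1b was called (log2 -4.48, adjusted p = 0.0232) and Hspa1a was not (log2 -3.21, adjusted p = 0.0601). DESeq2 called both (0.000264 and 1.78e-06), and with unscaled totals edgeR called Hspa1b (0.0494). Without either control library, or with the 2 groups alone, edgeR called both higher in Tcf1-deficient than in p45-deficient cells, and DESeq2 did so on all libraries. Leaving out a p45-deficient library raised the adjusted p for p45-deficient against control to between 0.303 and 0.416. Hspa1l, a neighbour of the pair that is not stress-induced and is 82.8% identical to Hspa1a in its coding sequence, stayed at 5.49 to 7.37 CPM in all 6 libraries.

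**Figure D3:**
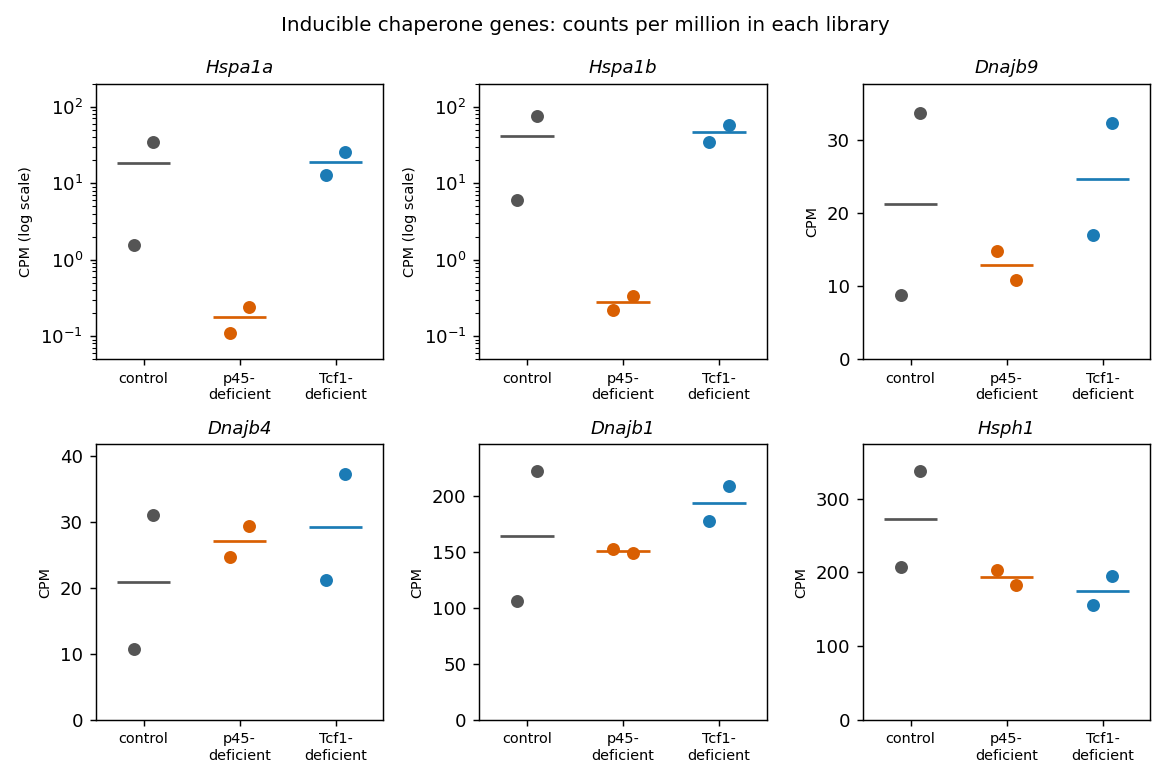
CPM of 6 chaperone genes in each library, on log axes for Hspa1a and Hspa1b and from 0 for the other 4, with a line at each group's mean. Hspa1a and Hspa1b are near the level of 3 reads in both p45-deficient libraries, and control library 1 lies well below control library 2 for all 6 genes.

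The 2 control libraries differed in further stress-responsive members. In control, 5 of the 64 members were at least 2-fold higher in library 2 than in library 1, and 1 at least 2-fold lower. Over all genes tested the shares were 2.84% and 2.67%. The 5 were Hspa1a, Hspa1b, Dnajb9, Dnajb4 and Dnajb1. Dnajb9 (ERdj4), an ER cochaperone that holds back the stress sensor Ire1, was at 8.80 and 33.6 CPM in the control pair, 14.8 and 10.9 in the p45-deficient pair and 16.9 and 32.2 in the Tcf1-deficient pair. Dnajb1 (Hsp40), the J protein that works with the inducible Hsp70, had 106 and 222, 152 and 149, and 177 and 209 CPM, and Dnajb4 had 10.7 and 31.1, 24.7 and 29.3, and 21.2 and 37.3 CPM. For all 3 the control pair spanned both p45-deficient libraries. The log2 fold change of Dnajb9 between p45-deficient and control cells was -0.73 (adjusted p = 0.495), and without control replicate 2 it was 0.49. Hsph1 (Hsp105), the inducible Hsp110, was at 207 and 337 CPM in wild-type control libraries, 204 and 183 in p45-deficient ones and 156 and 195 in Tcf1-deficient ones (log2 -0.49, adjusted p = 0.19). Hspg2 went the other way, at 8.90 and 1.64 CPM in control and 0.208 to 1.03 in the other 4 libraries. In the p45-deficient pair 1 member, Dnaja4 (0.551 and 1.48 CPM), was at least 2-fold higher in library 2 and 1, Hspa12a (5.11 and 1.68 CPM), at least 2-fold lower, where all genes gave 2.40% and 3.48%. In the Tcf1-deficient pair 0 were higher and 4 lower, where all genes gave 3.25% and 8.84%.

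Immediate-early genes, which cells switch on within minutes of stimulation, separated the same libraries. The summed level of 21 such genes was 968 and 4112 CPM in control, with 782 and 733 in p45-deficient libraries and 3586 and 4222 in Tcf1-deficient ones. Hspa1a and Hspa1b together were at 7.49 and 110, 0.331 and 0.574, and 47.3 and 83.4 CPM. Both sums were lowest in the 2 p45-deficient libraries, higher in control library 1, and highest in the other 3. For the immediate-early genes that order held for the sum and not for the typical gene. The median log2 level of the 19 tested genes, each against its mean over the libraries, was -1.05 in control library 1. It was -0.86 and -1.06 in the p45-deficient libraries. For Hspa1a and Hspa1b, control library 1 at 7.49 CPM did not share the level of the p45-deficient libraries, at 0.331 and 0.574. In control, 17 of the 19 tested immediate-early genes were at least 2-fold higher in library 2. In p45-deficient against control cells 2 of the 19 fell (10.5%, against 7.55% of all genes) and 0 rose. The 2 were Jun (log2 -4.11, edgeR adjusted p = 0.0374) and Jund (log2 -1.79, edgeR adjusted p = 0.0311). Leaving out p45-deficient replicate 1 or 2 ended both calls, and leaving out a control replicate changed which genes were called. The part of this difference between libraries in the values of Hspa1a, Hspa1b and the other stress-responsive members was not tested.

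**Figure D4:**
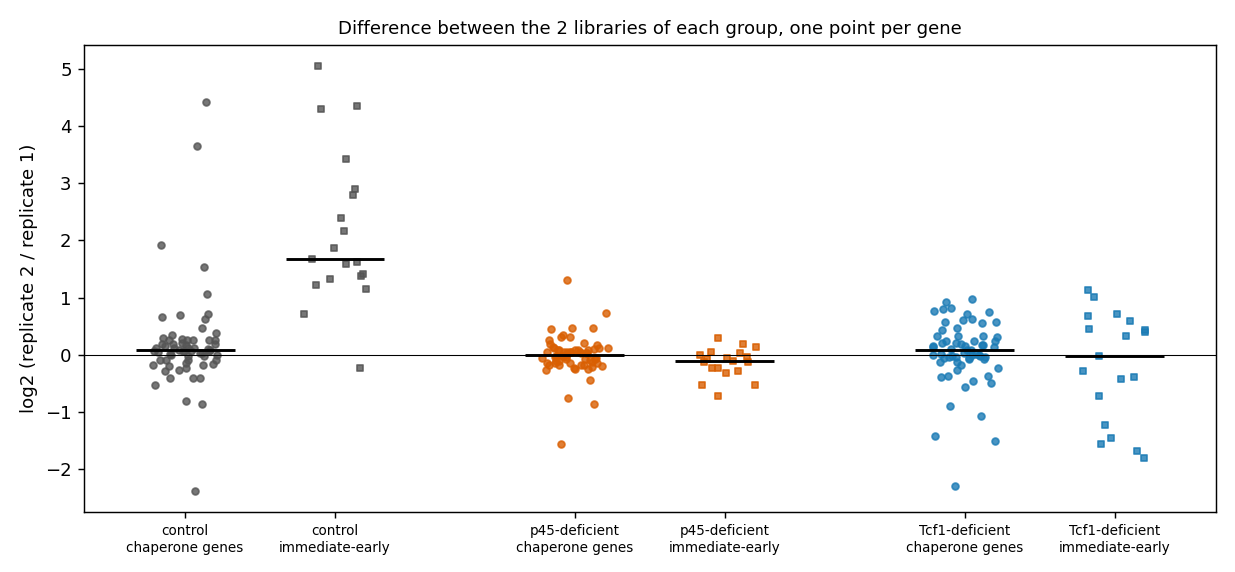
Log2 ratio of library 2 to library 1 (vertical axis) in each group, 1 point per gene, for the 64 members (circles) and the 19 tested immediate-early genes (squares), with a line at each median. In control the immediate-early genes have a median of 1.67 and 5 members lie above 1, while in the p45-deficient pair the medians of both sets are near 0.

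In Tcf1-deficient against control cells the main edgeR fit called 0 of the 64 members, as it called 0 of all 12939 genes (0%). Both Tcf1-deficient libraries nonetheless had less Tcf7 than both controls (log2 -0.995, edgeR adjusted p = 0.0762). The 0 over all genes depended on the fit: DESeq2 called 145 genes and edgeR without the filter called 33. Leaving out either Tcf1-deficient library also raised edgeR's count over all genes. The unadjusted p was below 0.05 for 1024 of all genes and for 2 members, Hsph1 (log2 -0.63, edgeR adjusted p = 0.613) and Hspg2 (log2 -3.52, edgeR adjusted p = 0.563), and DESeq2 called 1, Hspg2 (adjusted p = 0.0161). Both Tcf1-deficient libraries lay above both controls for 12 members and below for 11, where all genes gave 16.4% and 18.0%, so the members' shares of 18.8% and 17.2% were near the background. Hsp90b1 differed by a log2 of 0.05 ± 0.12 (adjusted p = 0.943). Hspa1a and Hspa1b differed by 0.06 and 0.18, with standard errors of 1.27 and 1.09. Both values took the opposite sign without control replicate 1 (-0.87 and -0.71) and without Tcf1-deficient replicate 2 (-0.51 and -0.26).

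In Tcf1-deficient against p45-deficient cells edgeR called 2 members lower, Hsp90b1 and Hspb11, and 0 higher. Of all genes 10.4% were called, 5.36% lower and 5.05% higher, against 3.12% and 0% of the members. Both Tcf1-deficient libraries lay below both p45-deficient ones for 26 members and above for 12, where all genes gave 33.3% and 27.7%, and an unadjusted p below 0.05 was found for 19 members and for 4030 of the 12939 genes, a like share. This comparison shares the p45-deficient libraries with the one against control, so the 2 are not independent. Hsp90b1 was 1.69-fold lower in Tcf1-deficient cells (log2 -0.75 ± 0.12, adjusted p = 0.0148), and the call was lost without p45-deficient replicate 1 (0.155) or 2 (0.0655). Hspb11, the intraflagellar transport gene, was at 6.14 and 6.45 CPM in the control pair, 14.9 and 13.7 in the p45-deficient pair and 6.77 and 6.74 in the Tcf1-deficient pair. The other 4 libraries lay within a narrow band, and the p45-deficient pair was 2.27-fold above control (log2 1.19 ± 0.22, adjusted p = 0.0153) and 2.12-fold above Tcf1-deficient cells (log2 -1.08 ± 0.22 for Tcf1-deficient against p45-deficient, adjusted p = 0.0274). Leaving out any one control or p45-deficient library raised the adjusted p against control to between 0.0905 and 0.137, and that between the mutants to between 0.0656 and 0.21. Dnajc15 (log2 -0.82, adjusted p = 0.0544), Dnajc9 (log2 -0.41, adjusted p = 0.0579) and Hspe1 (log2 -0.47, adjusted p = 0.0635) came close without passing. All 3 passed when Tcf1-deficient replicate 2 was left out, which raised the members called lower from 2 to 11.

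Among the partner genes, 5 of 23 ER folding genes were lower in Tcf1-deficient than in p45-deficient cells and 0 higher, where 5.36% and 5.05% of all genes were. They were Manf (log2 -0.85, adjusted p = 0.0131), Pdia6 (log2 -0.77, adjusted p = 0.0141), Pdia4, Pdia3 and Canx, 5 of the 6 that rose in p45-deficient over control cells, from the same p45-deficient libraries. The other lists gave 2 of 13 TRiC and prefoldin genes lower, 1 of 26 co-chaperones lower (Sugt1, log2 -0.50, adjusted p = 0.0483), 1 of 12 mitochondrial genes lower (Grpel1, log2 -0.57, adjusted p = 0.0265), and 1 of 5 heat-shock factor genes and regulators higher (Hsf2bp, log2 1.99, adjusted p = 0.048). A single call among 26 or 12 genes is near the share over all genes. Hsf2bp was called in 1 of the 6 fits that left out a library, that without Tcf1-deficient replicate 1, and its adjusted p reached 0.236 in the others. Without p45-deficient replicate 1 or 2 none of the ER, TRiC and prefoldin, co-chaperone or mitochondrial genes of these lists was called. In Tcf1-deficient against control cells edgeR called 0 genes of any of these lists. Outside the partner genes, 4 of the 19 tested immediate-early genes were called higher in Tcf1-deficient than in p45-deficient cells and 0 lower. Both Tcf1-deficient libraries lay above both p45-deficient ones for 17 of the 19, where 27.7% of all genes did. DESeq2 called 13 of the 19 higher, and edgeR without the filter called 1.

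The summed level of all 64 members was 14467 and 16403 CPM in wild-type control libraries, 18409 and 17327 in p45-deficient ones and 13840 and 15692 in Tcf1-deficient ones. Hspa8, Hsp90aa1 and Hsp90ab1 took more reads than the other 61 members together in every library. Without these 3 genes the sums were 5418 and 6548, 7126 and 6720, and 5779 and 6422 CPM. With TMM scaling the p45-deficient pair was thus above the other 4 libraries in both sums. That scaling raised both p45-deficient libraries and lowered both control ones, and the order depended on it. With unscaled totals p45-deficient library 2 falls below control library 2, both for all 64 members and without the 3 genes. By compartment, the 13 ER members summed to 1291 and 1564 CPM in control, with 2081 and 1851 in p45-deficient libraries and 1638 and 1586 in Tcf1-deficient ones, and the 8 mitochondrial members to 1318 and 1423, 1589 and 1579, and 1189 and 1405 CPM.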

How the data were processed

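RNA-seq was analysed from 6 libraries of sorted DN3 thymocytes, 2 each of wild type, p45-/- and Lck-cre+ Tcf1 fl/fl mice. The deposited values are whole-number read counts per gene, 1 file per library; per the submitters' processing notes, TopHat2, featureCounts 1.5.0-p3 and DESeq2 3.4 were used with mouse build mm9, and annotation and strandedness are not stated there. Counts were tested as deposited with edgeR 4.0.16 (R 4.3.3): filterByExpr, TMM scaling, robust quasi-likelihood F test over all 6 libraries with 1 mean per group, and Benjamini-Hochberg adjustment over all 12939 genes tested at 0.05. A standard error is the log2 fold change divided by the square root of F. Ratios between libraries used a prior count of 2.

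The members and gene lists were chosen with earlier results of these data known. Named genes were chaperones picked by role, the members called, those that differed most within a group, and up to 3 genes of each list with the smallest p. Alternatives were DESeq2 1.42.0, no filter, other scalings, a replicate block, only the groups compared, each library left out and the Hspa1a and Hspa1b counts summed. Same-numbered libraries did not deviate together. Motifs were searched in RefSeq windows of 250 bases before and 50 after each start. The fit was tested on simulated data with known changes. Over the 3 comparisons it called 4.48% to 8.96% of 1.5-fold changes, 37.3% to 55.2% of 2-fold changes and 90.9% to 98.5% of 4-fold changes. A gene that was not called may thus still differ by 1.5-fold or 2-fold.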

Additional observations from a re-analysis of the deposited data

How the results depend on the processing

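With 2 libraries per group, 1 library can decide a call, and low counts give wide errors. The groups shared 1 estimate of spread but did not scatter alike. Over all genes, the standard deviation of the log2 ratio of library 2 to library 1 was 0.51 in control and 0.49 in p45-deficient cells. In Tcf1-deficient cells it was 0.79. Leaving out each library in turn gave 0 to 14 members called higher and 0 to 4 lower in p45-deficient against control cells, and 0 to 2 higher and 0 to 11 lower in Tcf1-deficient against p45-deficient cells; fewer libraries also leave fewer residual degrees of freedom. For p45-deficient against control, DESeq2 called 9 members higher and 5 lower, unscaled totals 4 and 3, upper-quartile scaling 4 and 1, and a fit of only these 2 groups 11 and 4. For Tcf1-deficient against p45-deficient, DESeq2 called 3 higher and 6 lower, and only the 2 groups 2 and 1. For Tcf1-deficient against control, DESeq2 called 1 lower. With a replicate block, 5 members were called higher and 2 lower in p45-deficient against control. The labels do not say whether same-numbered libraries were paired. Their correlations of deviations were -0.0141, -0.0504 and -0.0286, which cannot show how the libraries were prepared. No filter, relative log expression scaling and the summed Hspa1a and Hspa1b counts kept every count of members within 1.5 times of its main value. Directions turned for values that were not called. Hsp90b1 in Tcf1-deficient against control was -0.0027 with unscaled totals. Over the libraries left out, Hspa5 in p45-deficient against control ran from -0.0285 to 0.59, Dnajb9 from -1.44 to 0.49, and in Tcf1-deficient against control Hspa1a ran from -0.87 to 3.62 and Hspa1b from -0.71 to 2.95. The cause of these changes was not tested.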
